A study of Homo sapiens with 4 samples.

Results

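The integrated stress response and the unfolded protein response were examined through 10 genes, ATF4, ATF3, DDIT3, ASNS, TRIB3, CHAC1, PSAT1, HSPA5, XBP1 and DNAJB9, which are 10 of the 59050 genes of the count table. They were chosen by name, as genes known for these pathways, with earlier results of these data known. Each was compared between PML-silenced and control cells within each experiment. The cells were RCC4, an established human clear cell renal cell carcinoma (ccRCC) line, transduced with a Tet-pLKO-puro lentivirus that expresses an inducible hairpin against PML (shPML#1, here shPML) or a scramble hairpin (shCtrl). Doxycycline was given to both groups for 96 h at 100 ng/ml in medium with tetracycline-free serum. RNA came from 2 experiments that started from separate infections, so that each group has 2 libraries, named replicate 1 and replicate 2. Same-numbered libraries were taken as coming from the same experiment, a pairing that the methods do not state. The cells were bulk populations and not clones, 1 hairpin stands for the silencing, and fewer cells of a type and less RNA per cell cannot be told apart in such RNA.

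Kinases that sense unfolded proteins, amino acid shortage, heme shortage or double-stranded RNA phosphorylate the initiation factor eIF2alpha. General translation then slows, while the mRNA of the transcription factor ATF4 is translated more, and ATF4 switches on genes of amino acid supply and, with longer stress, DDIT3 (CHOP) and ATF3. In the endoplasmic reticulum (ER), the sensors IRE1 and ATF6 act beside the kinase PERK: IRE1 splices the mRNA of XBP1, and XBP1 and ATF6 raise chaperones such as HSPA5 (BiP). Gene counts see neither the translation of ATF4 nor the splicing of XBP1.

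The promoters of 5 of the genes are shown because they hold the letters of a known stress element. Promoter windows of RefSeq (build GRCh38.p14), from 250 bases before to 50 bases after a start site, were found for 10 of 10 genes and searched on both strands. Capitals mark the match, and each sequence is written 5′ to 3′ on the strand of its gene. The letters TGATGNAA, the core of elements bound by C/EBP-ATF pairs, were found in the windows of ATF3, ASNS and CHAC1, in CHAC1 on the antisense strand, and in 3.62% of 35116 windows. The ER stress element, CCAAT and CCACG with 9 bases between them, was found in the windows of HSPA5 and XBP1 and in 0.0769% of the windows.
HSPA5, chr9:125241346-125241454, minus strand: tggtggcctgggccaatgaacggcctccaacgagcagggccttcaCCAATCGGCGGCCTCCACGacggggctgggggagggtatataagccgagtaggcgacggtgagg
XBP1, chr22:28800558-28800666, minus strand: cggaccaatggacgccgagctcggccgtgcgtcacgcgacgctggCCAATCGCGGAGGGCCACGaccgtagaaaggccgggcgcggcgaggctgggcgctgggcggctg
ATF3, chr1:212565171-212565268, plus strand: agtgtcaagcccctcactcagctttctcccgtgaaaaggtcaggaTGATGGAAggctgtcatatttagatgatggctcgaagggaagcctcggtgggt
ASNS, chr7:97872424-97872521, minus strand: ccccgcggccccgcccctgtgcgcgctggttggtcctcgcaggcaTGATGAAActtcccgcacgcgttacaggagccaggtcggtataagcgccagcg
CHAC1, chr15:40953221-40953314, plus strand: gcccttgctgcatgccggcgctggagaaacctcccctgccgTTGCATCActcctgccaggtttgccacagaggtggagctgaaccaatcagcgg

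The matches lay from 66 to 48 bases before the start site in HSPA5, from 52 to 34 in XBP1, from 191 to 184 in ATF3, from 68 to 61 in ASNS and from 209 to 202 in CHAC1. The 10 genes had 17 windows, and each distance is from the start site of the window with the match. The matches of ASNS and CHAC1 lie inside the gene spans given below. The windows of ATF4, DDIT3, TRIB3, PSAT1 and DNAJB9 held neither element. The cAMP response element TGACGTCA and the unfolded protein response element TGACGTGG, in 1.85% and 0.729% of all windows, were found in 0 of the 10 genes. A match describes the letters of the window and not the binding of a factor. The shares are of windows, while a gene counts as matched if any of its windows holds the letters. Counts of genes, here and in the lists below, are thus not directly comparable with these shares.

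The libraries held 27781193 to 69870617 counted reads, and levels are given as counts per 1000000 counted reads (CPM) after TMM normalization. PML, the gene targeted by the hairpin, was measured at 93.1 and 136 CPM (replicate 1, then replicate 2, in this order throughout) in shCtrl against 54.9 and 87.6 CPM upon silencing, and it fell 1.62-fold (log2 fold change -0.70 ± 0.11 SE, adjusted p = 4.19e-07 in edgeR with the experiment as a block). The groups did not overlap, but shPML replicate 2 lay close to shCtrl replicate 1, and without the block the adjusted p was 0.32. Markers of kidney and clear cell carcinoma were present in every library, with PAX8 from 302 to 427 CPM, and the T cell and squamous markers CD3E and KRT5 had 0 counts in all 4. The library shPML replicate 2 stood apart: 17 of 18 macrophage markers were highest there, each at least 10 times any other library, and their summed level was 372.9 CPM against 1.03 to 2.64 CPM in the other 3 libraries. LYZ had 2349 counts there and CD14 1177, against 4 or fewer in each other library, while C1QB had 0. The liver gene ALB had 172 and 271 counts in the replicate 1 libraries and 0 in those of replicate 2. The part of these transcripts in the results was not tested, and the log2 ratio in replicate 1 alone, which leaves that library out, is given beside the 10 genes, the called pathway genes and the list medians.

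Of the 10 genes, TRIB3 and PSAT1 fell and ATF3 rose upon PML silencing, whereas the 7 others did not pass both thresholds (an adjusted p below 0.05 together with a change of more than 0.5 on the log2 scale). TRIB3 encodes a pseudokinase that restrains ATF4, PSAT1 an enzyme of serine synthesis, and ATF3 a stress-induced transcription factor. Among the 16516 genes tested 19.1% were called, 8.57% as higher and 10.5% as lower, so 1 higher and 2 lower genes of 10 is a share near that background. By the adjusted p alone, ATF3 and DDIT3 were higher and ATF4, TRIB3, PSAT1 and HSPA5 lower, 6 of 10 against 30.2% of all genes (14.5% higher and 15.7% lower). All 10 passed the filter on low counts, and their median log2 fold change was -0.10, against 0.00 over all genes tested. The groups were fully apart in 7 of the 10 genes, with each shPML library beyond each control on the same side, which held for 48.0% of all genes.

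In edgeR these calls rest on the experiment block. Without it the tool called 0 of the 10 genes and 0.412% of all genes, with 4 of the 10, ATF4, ATF3, TRIB3 and PSAT1, at an unadjusted p under 0.05, as were 17.9% of all genes. DESeq2 called the same 3 genes with and without the block.

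**Figure D1:**
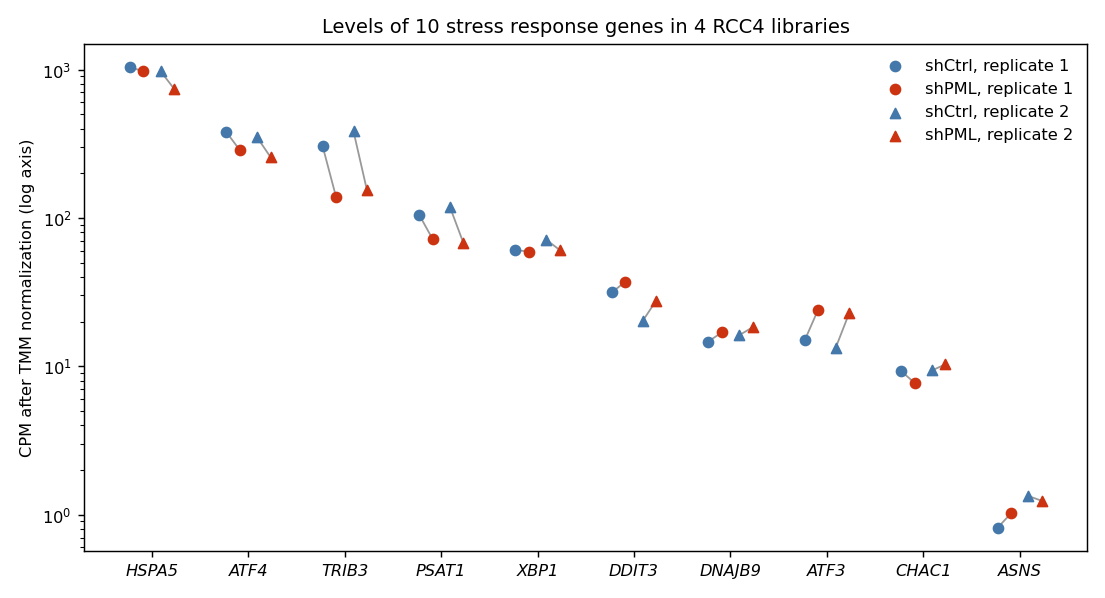
Levels of the 10 genes in each library in CPM after TMM normalization, on a log axis. Blue points are shCtrl and red points shPML, circles are replicate 1, triangles are replicate 2, and a line joins the libraries of an experiment. TRIB3, PSAT1, ATF4 and HSPA5 step down from shCtrl to shPML in both experiments, ATF3, DDIT3 and DNAJB9 step up, and CHAC1 and ASNS step in opposite directions.

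ATF4 is the transcription factor at the centre of the integrated stress response (chr22:39519695-39522685, plus strand, as all gene positions in the GRCh38 coordinates of the count table). Its mRNA was measured at 380 and 349 CPM in shCtrl and at 286 and 256 CPM in shPML. Each shPML library was below each control, and the ratio was nearly equal in the 2 experiments, with log2 values of -0.41 and -0.44. The fitted log2 fold change was -0.43 ± 0.10 (SE), a level 1.34-fold lower upon silencing, with an adjusted p of 0.000322 in edgeR with the block and 0.25 without it. ATF4 thus passed the threshold on the adjusted p but stayed within the threshold on the fold change.

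ATF3 belongs to the same family of leucine zipper factors and is induced by ATF4 and other stress signals (chr1:212565334-212620775, plus strand). It was measured at 14.9 and 13.2 CPM in shCtrl and at 24.1 and 22.7 CPM in shPML. Each group was tight and the groups were well apart, so that the step between the conditions exceeded the step between the experiments. ATF3 rose 1.66-fold (log2 fold change 0.73 ± 0.14 SE, adjusted p = 1.67e-05 in edgeR with the block, 0.00378 in DESeq2 with the block and 0.123 in edgeR without it). Replicate 1 alone gave a log2 ratio of 0.69 and replicate 2 one of 0.78.

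DDIT3 encodes CHOP, the factor that links prolonged ER stress to cell death (chr12:57516588-57521737, minus strand). Its levels were 31.4 and 20.2 CPM in shCtrl and 37.1 and 27.7 CPM in shPML. The libraries of replicate 1 were higher than those of replicate 2 in both conditions, by 0.64 in shCtrl and 0.42 in shPML on the log2 scale, so that the conditions overlapped across experiments. Within each experiment shPML was above shCtrl, by 0.24 and 0.46 on the log2 scale. The fitted log2 fold change of 0.34 ± 0.13 (SE) had an adjusted p of 0.0308 in edgeR with the block, 0.157 in DESeq2 with the block and 0.621 in edgeR without it. An exonic stretch of 4.97% of DDIT3 is shared with MARS on the opposite strand, and the strand setting of the counting is not given in the sources used here. On the same strand 8.03% is shared with AC022506.1, which had 0 counts in every library.

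TRIB3 is a target of ATF4 and CHOP that feeds back on both (chr20:381021-397559, plus strand), and it changed most among the 10 genes. It was measured at 303 and 383 CPM in shCtrl and at 138 and 153 CPM in shPML. Both shPML values were far below either control. TRIB3 fell 2.35-fold (log2 fold change -1.23 ± 0.10 SE, adjusted p = 1.09e-15 in edgeR with the block and 0.0634 without it). In DESeq2 the adjusted p was 4.4e-06 even without the block. Replicate 1 alone gave a log2 ratio of -1.14, and replicate 2 gave -1.32.

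PSAT1 catalyses the transamination step of serine synthesis (chr9:78297125-78330093, plus strand). Levels of 105 and 118 CPM in shCtrl compared with 72.0 and 67.7 CPM in shPML, with no overlap between the groups. PSAT1 fell 1.6-fold (log2 fold change -0.68 ± 0.11 SE, adjusted p = 1.20e-06 in edgeR with the block and 0.113 without it), with log2 ratios of -0.55 and -0.81 in replicates 1 and 2.

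CHAC1 encodes an enzyme that degrades glutathione and is induced by ATF4 (chr15:40952962-40956512, plus strand). It was measured at 9.27 and 9.36 CPM in shCtrl and at 7.71 and 10.3 CPM in shPML. The controls were nearly equal, and 1 shPML library lay below them and the other above, with log2 ratios of -0.27 and 0.14. The log2 fold change was -0.071 ± 0.18 (SE, adjusted p = 0.824 in edgeR with the block).

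ASNS makes asparagine and is a much used reporter of ATF4 activity (chr7:97851677-97872542, minus strand), but it had only 44 and 48 counts in shCtrl and 73 and 34 counts in shPML. These correspond to 0.813 and 1.33 CPM in shCtrl and to 1.02 and 1.24 CPM in shPML, and the groups overlapped. Of the exonic bases of ASNS, 82.4% are shared on the same strand with AC079781.5, which had 7 to 18 counts per library. How reads on such shared bases were assigned is not given in the sources used here, so the level of ASNS is uncertain. ASNS had a log2 ratio of 0.32 in replicate 1, with a 95% counting interval from -0.23 to 0.90, and -0.11 in replicate 2, with an interval from -0.79 to 0.56. A change of ASNS was not detectable at these low counts (log2 fold change 0.11 ± 0.50 SE, adjusted p = 0.90 in edgeR with the block).

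HSPA5 (chr9:125234853-125241343, minus strand) has the letters of the ER stress element shown above in its promoter window. It is the most abundant chaperone of the Hsp70 family in the ER and the protein that holds its sensors inactive. Its levels were 1039 and 972 CPM in shCtrl and 971 and 739.8 CPM in shPML. The controls and shPML replicate 1 lay close together, shPML replicate 2 was the lowest, and the groups were apart by less than 1 CPM. HSPA5 differed by -0.10 (log2 ratio) in replicate 1 and by -0.39 in replicate 2, so most of the fitted difference of -0.25 ± 0.09 (SE) came from the experiment that holds the macrophage transcripts. Its adjusted p was 0.0356 in edgeR with TMM and the block, 0.0611 when scaled by RLE, and 0.0656 in DESeq2 with the block.

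XBP1, the factor activated by IRE1 (chr22:28794555-28800597, minus strand), was measured at 60.7 and 71.2 CPM in shCtrl and at 59.2 and 60.6 CPM in shPML. The shPML libraries were just below the lower control. The log2 fold change was -0.13 ± 0.11 (SE, adjusted p = 0.425 in edgeR with the block), with log2 ratios of -0.04 and -0.23.

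DNAJB9, an ER cochaperone of HSPA5 that XBP1 induces (chr7:108569874-108574850, plus strand), was measured at 14.7 and 16.2 CPM in shCtrl and at 16.9 and 18.3 CPM in shPML. Both shPML values were above both controls, by a margin smaller than the step between experiments. The log2 fold change was 0.19 ± 0.14 (SE, adjusted p = 0.342 in edgeR with the block), with log2 ratios of 0.20 and 0.18.

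**Figure D2:**
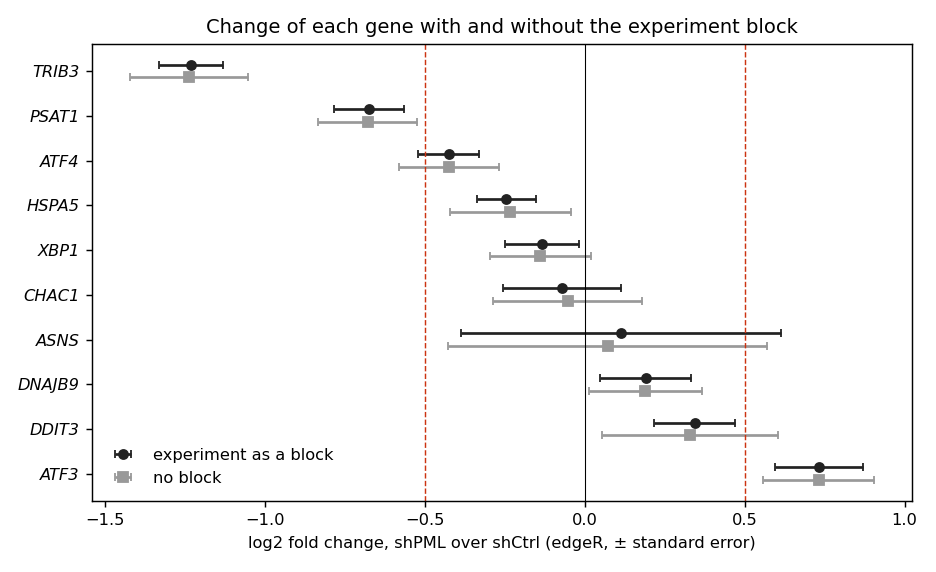
Log2 fold change of shPML over shCtrl for each of the 10 genes in edgeR, with the experiment as a block (black circles) and without it (gray squares). Bars are ± 1 standard error and dashed lines mark the threshold of 0.5 in each direction. The estimates barely move between the fits, TRIB3 at -1.23 and PSAT1 at -0.68 lie beyond the lower line and ATF3 at 0.73 beyond the upper one, while the errors of most genes are longer without the block.

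Per kilobase of exonic length, the 10 genes were spread over a wide range of levels in control cells. HSPA5 was the highest, with a mean of 256 CPM per kilobase in shCtrl, followed by ATF4 at 145 and TRIB3 at 138. PSAT1 followed at 50.7, XBP1 at 32.4 and DDIT3 at 19.7 CPM per kilobase. DNAJB9 at 6.40, ATF3 at 5.55, CHAC1 at 4.54 and ASNS at 0.366 CPM per kilobase were the lowest. In the 2 shCtrl libraries the values of ATF4 and TRIB3 overlapped, so that their order is not set, and those of every other pair of neighbours were apart.

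Set against ATF4 in the same library, TRIB3 and PSAT1 were lower in shPML in both experiments and the other 7 genes were higher in both, ASNS included at its low counts. For each 100 ATF4 reads there were 3.93 and 3.79 ATF3 reads in shCtrl and 8.41 and 8.84 in shPML. For DDIT3 the numbers were 8.28 and 5.79 in shCtrl and 13.0 and 10.8 in shPML. TRIB3 gave 79.9 and 109.7 reads for each 100 of ATF4 in shCtrl and 48.1 and 59.7 in shPML. PSAT1 was at 27.7 and 34.0 in shCtrl and at 25.2 and 26.4 in shPML, a smaller step than that of TRIB3. Within each experiment XBP1, HSPA5, DNAJB9, CHAC1 and ASNS were, like ATF3 and DDIT3, higher relative to ATF4 in shPML than in shCtrl. DNAJB9, for example, was at 3.86 and 4.63 in shCtrl and at 5.90 and 7.13 in shPML, and HSPA5 at 274 and 278 and at 339 and 289. The lower ATF4 level of the shPML libraries enters each ratio, and none was tested.

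Other genes of the pathways were followed in 8 lists with 108 genes, of which 102 passed the filter on low counts. Of these 102, 8 rose and 11 fell, and their median log2 fold change was -0.01 (0.00 and -0.05 in replicates 1 and 2), shares near the 8.57% and 10.5% of all tested genes. Without the block edgeR called 0 of them, with 22 at an unadjusted p under 0.05 (17.9% of all genes were), and DESeq2 without the block called 4 as higher and 7 as lower. Both shPML libraries lay beyond both controls in 49 of the 102, a share like the 48.0% of all genes. The counts of each list below are to be read against the same shares of 8.57% called higher and 10.5% called lower. The lists were drawn up with earlier results of these data known, so these comparisons describe and do not test.

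**Figure D3:**
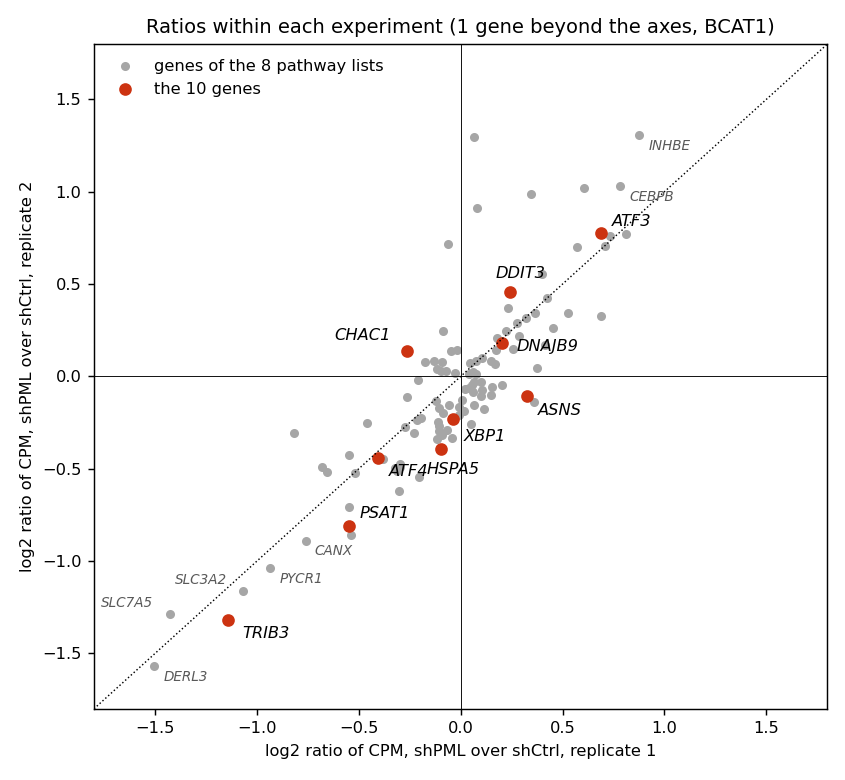
Log2 ratio of CPM of shPML over shCtrl in replicate 1 (horizontal axis) and in replicate 2 (vertical axis) for the 10 genes (red) and for the tested genes of the 8 pathway lists (gray), with a dotted line of equality. TRIB3, at -1.14 and -1.32, lies among the lowest points with DERL3, SLC7A5, SLC3A2, PYCR1 and CANX. The lowest is DERL3, at -1.50 and -1.57. ATF3 lies at the upper right with INHBE and CEBPB, and CHAC1 and ASNS lie in the quadrants of opposite sign. BCAT1, at -0.24 and 3.70, is beyond the axes.

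Amino acid transporters held, apart from DERL3, the largest decrease among the called genes of the 8 lists. Of 8 tested transporters 3 fell and 0 rose, and the median log2 fold change was -0.29, with median log2 ratios of -0.34 and -0.26 in the 2 experiments. SLC7A5 and SLC3A2 are the light and heavy chain of LAT1, the importer of large neutral amino acids. SLC7A5 was measured at 901 and 1350 CPM in shCtrl and at 335 and 553 CPM in shPML, and it fell by 1.36 on the log2 scale (SE 0.09, adjusted p = 1.23e-18 in edgeR with the block, 0.124 without it). SLC3A2 was measured at 358 and 374 CPM in shCtrl and at 171 and 167 CPM in shPML (log2 fold change -1.11 ± 0.10 SE, adjusted p = 2.62e-14 in edgeR with the block and 0.0568 without it). In replicate 1 alone the log2 ratio was -1.43 for SLC7A5 and -1.07 for SLC3A2. The arginine transporter SLC7A1 fell as well, with a log2 fold change of -0.59 (-0.65 in replicate 1), while SLC7A11, the cystine importer, was at 19.3 and 26.0 CPM in shCtrl and 19.8 and 26.3 CPM in shPML. SLC43A1 was not tested, with 6 and 2 counts in shCtrl and 4 and 3 counts in shPML, too few to give its ratios of opposite sign a reading. The TGATGNAA letters were in the promoter windows of 5 of 9 transporter genes with a window, SLC3A2 and SLC7A1 among them.

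Among the enzymes of amino acid and one-carbon synthesis, 2 of 11 fell and 1 rose, the latter a share like that of all genes, with a median log2 ratio of -0.19 within replicate 1 and -0.11 within replicate 2. PYCR1, the last enzyme of proline synthesis, was at 116 and 160 CPM in shCtrl and at 60.8 and 77.9 CPM in shPML (log2 fold change -0.99 ± 0.11 SE, adjusted p = 2.9e-11 in edgeR with the block, log2 ratio -0.93 in replicate 1). SHMT2, the mitochondrial serine hydroxymethyltransferase, fell with a log2 fold change of -0.63 (-0.55 in replicate 1). Both lie in the same direction as PSAT1. The enzyme called as higher, BCAT1, was chosen for mention after its values were seen: it was at 0.148 and 0.333 CPM in shCtrl and at 0.126 and 4.33 CPM in shPML, so the call rests on shPML replicate 2, the library with macrophage transcripts, and its adjusted p in DESeq2 with the block was 0.169. PHGDH, the first enzyme of serine synthesis, was seen with at most 5 counts per library and was not tested.

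Among the other targets of ATF4 and CHOP, 5 of 13 tested genes rose, 0 fell, and the median log2 fold change was 0.48, with median log2 ratios of 0.34 in replicate 1 and 0.55 in replicate 2. INHBE, an inhibin subunit, was at 8.17 and 7.97 CPM in shCtrl and at 15.0 and 19.7 CPM in shPML (log2 fold change 1.08 ± 0.16 SE, adjusted p = 1.65e-07 in edgeR with the block, log2 ratio 0.88 in replicate 1). VLDLR, a lipoprotein receptor, had a log2 fold change of 0.75, and TNFRSF10B, the death receptor DR5, one of 0.71, and in replicate 1 alone their log2 ratios were 0.73 and 0.71. KLHL24 and CDKN1A, the remaining pair, are named after their values were seen, at 0.63 (0.57 in replicate 1) and 0.66. CDKN1A (p21), which the paper names as a p53 target, had log2 ratios of 0.34 and 0.99 in the 2 experiments (adjusted p = 0.125 in DESeq2 with the block). Whether p53 also acts on other genes of this list was not examined. The paper reports that p53 and p21 protein accumulated upon PML silencing. Membership in the list does not exclude other regulators, and which factor raised its genes was not tested. No gene of this list fell by the adjusted p alone, whereas 8 of 13 were higher by it, against 14.5% of all genes. Of these 8, GDF15, named after its values were seen, had log2 ratios of 0.08 in replicate 1 and 0.91 in replicate 2. Its levels were 196 and 336 CPM in shCtrl and 207 and 631 CPM in shPML. The adjusted p of GDF15 in DESeq2 with the block was 0.42. Replicate 2 holds the library with macrophage transcripts, whose part in this ratio was not tested.

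Of 7 factors that partner with ATF4 or are regulated with it, CEBPB rose and ATF5 fell, with a median log2 ratio of 0.36 within replicate 1 and 0.14 within replicate 2. CEBPB was at 15.1 and 40.2 CPM in shCtrl and at 26.0 and 82.1 CPM in shPML, so the groups overlapped, and the log2 ratio was 0.78 and 1.03 within the experiments. ATF5 had log2 ratios of -0.82 and -0.30, and 19.9% of its exonic bases are shared with NUP62 on the opposite strand. Of 13 tRNA synthetase and tRNA export genes 1 rose and 0 fell, with median log2 ratios of 0.15 and 0.015 in replicates 1 and 2. The gene that rose was WARS, the tryptophanyl-tRNA synthetase, at 59.8 and 59.6 CPM in shCtrl and at 105 and 102 CPM in shPML (log2 fold change 0.79 ± 0.11 SE, adjusted p = 3.33e-08 in edgeR with the block, log2 ratio 0.81 in replicate 1). The TGATGNAA letters were in the windows of 7 of 11 genes of this list, of which WARS was not one.

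Of the 14 genes in the list of stress sensors, related factors and regulators of eIF2alpha phosphorylation, 1 was called. It was CREB3L2, a membrane-bound factor related to ATF6, with a log2 fold change of -0.52 (-0.52 in replicate 1). The median log2 ratio of the list was -0.081 in replicate 1 and 0.033 in replicate 2. The 4 eIF2alpha kinases EIF2AK1, EIF2AK2, EIF2AK3 (PERK) and EIF2AK4 (GCN2) had log2 fold changes from -0.04 to -0.01, and PPP1R15A (GADD34), which reverses the phosphorylation, had -0.02. Their adjusted p values in edgeR with the block were from 0.838 to 0.973.

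Of 16 ER chaperones and folding enzymes 2 fell and 0 rose, 7 were lower by the adjusted p alone (15.7% of all genes were), and the median log2 fold change was -0.20. The 2 called genes are a share near the 10.5% of all genes. CANX (calnexin) was at 995 and 1037 CPM in shCtrl and at 587 and 560 CPM in shPML (log2 fold change -0.83 ± 0.09 SE, adjusted p = 5.81e-11 in edgeR with the block, log2 ratio -0.76 in replicate 1). MANF, a secreted ER stress protein, fell with a log2 fold change of -0.70 (-0.54 in replicate 1). The median log2 ratio of the list was -0.12 in replicate 1 and -0.30 in replicate 2, the same order as that of HSPA5. The ER stress element was in the windows of 5 of 15 genes of the list, CALR, CANX, CRELD2, HSP90B1 and PDIA6, and their log2 fold changes were -0.27, -0.83, -0.11, -0.46 and 0.01.

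In ER-associated degradation and translocation 2 of 20 genes fell and 0 rose, a share like the 10.5% of all genes, where the median fold change was -0.05 (log2) and median log2 ratios were -0.0095 and -0.086 in replicates 1 and 2. DERL3, at 5.34 and 4.75 CPM in shCtrl and 1.88 and 1.6 CPM in shPML, had a log2 fold change of -1.53 (-1.50 in replicate 1), but 87.3% of its exonic bases lie opposite SMARCB1, so its level is uncertain. EDEM3, a mannosidase of this pathway, fell with a log2 fold change of -0.59 (-0.68 in replicate 1). The established XBP1 and ATF6 target HERPUD1 was at 118 and 118 CPM in shCtrl and at 121 and 113 CPM in shPML, and SEL1L and SYVN1 had log2 fold changes of -0.01 and -0.05.

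**Figure D4:**
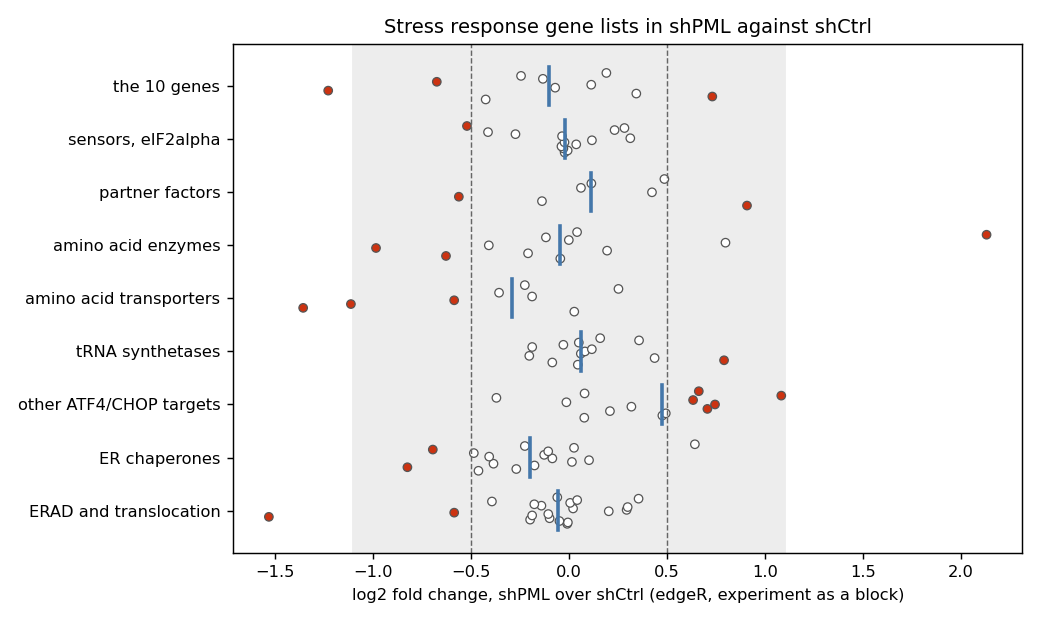
Log2 fold change of shPML over shCtrl (edgeR with the experiment as a block) for the 10 genes and for the tested genes of each pathway list, 1 point per gene, with called genes in red, other genes in white and the median of each list as a blue bar. Dashed lines mark 0.5 in each direction, and the gray band runs from the 5th to the 95th percentile of all tested genes, from -1.10 to 1.10. The medians of the transporters (-0.29) and ER chaperones (-0.20) lie left of 0 and that of the other ATF4 and CHOP targets (0.48) right of it.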

How the data were processed

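The authors deposited raw read counts per gene, whole numbers without normalization. Per the methods and the submitters' processing notes, single-end reads of stranded mRNA libraries were trimmed with Trimmomatic 0.39, mapped to GRCh38 by STAR and assigned to Gencode genes by featureCounts 1.6.4. The Gencode release and the strand setting are not given in the sources used here. In each group 1 column is marked 2 and the other has no mark, and the unmarked column was read as replicate 1. Columns were matched to samples by name. An update of the record states that the labels of shPML replicate 1 and shCtrl replicate 2 had been swapped and were corrected. Whether the column names follow the corrected labels is not given in the sources used here. As named, PML was lower in the shPML column of both experiments.

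The 10 genes and all lists were chosen with earlier results of these data known, and the macrophage markers were added after the counts were seen. In R 4.3.3, edgeR 4.0.16 fitted all genes kept by filterByExpr, with TMM normalization, the experiment as a block, the quasi-likelihood test and Benjamini-Hochberg adjustment. The thresholds are those of the methods. DESeq2 1.42.0, RLE normalization, other filters, other fold thresholds, no block and each library left out were alternatives. Log2 ratios within an experiment are of CPM, and counting intervals (95%) cover counting error only. No exact permutation test was run, since with 2 against 2 libraries its smallest two-sided p is 0.333.

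The methods describe 2 experiments with separate infections but do not state which libraries belong together. Same-numbered libraries were taken as coming from the same experiment. The deviations of the replicate 1 libraries from their group means correlated at 0.546 over genes (not independent of each other), and the common dispersion was 0.0137 with the block and 0.0813 without it. In simulated data with 200 genes changed 2-fold, edgeR recovered 184 with the block and 0 without it (16248 genes, 0 unchanged genes called). DESeq2 with the block recovered 152 (16516 genes). The simulated means kept the difference between the experiments, and a single dispersion for all genes came from the blocked fit. The simulation therefore could not test whether the block was needed. RLE in place of TMM shifted the median log2 fold change by 0.0132.

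Named beside the 10 genes and PML are, in each list, up to 3 called genes in each direction with the same sign in both experiments. Genes named outside this rule are context from the lists or are marked in the text. Older symbols of the count table were kept (WARS is WARS1, MARS is MARS1). Overlaps of exons come from the coordinates of the count table. Python 3.11.15 with pandas 2.3.3 and matplotlib 3.10.9 was used for the rest.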

Additional observations from a re-analysis of the deposited data

Results flagged for a closer look

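Because their log2 ratios of shPML over shCtrl had opposite signs in the 2 experiments, 2 of the 10 genes stood out. CHAC1 was at -0.27 in replicate 1 and at 0.14 in replicate 2, and ASNS at 0.32 and -0.11. With 1 library per group in each experiment, the difference between the experiments was not tested, and the counting intervals of both ASNS ratios include 0. The transporter SLC43A1, with 6 counts or fewer per library, was at -0.99 and 0.97. Over all genes tested, 4097 of 16516 had opposite signs.

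Macrophage markers, which no comparison used, summed to 372.9 CPM in shPML replicate 2, against 1.88 CPM in shCtrl replicate 1, 2.64 CPM in shCtrl replicate 2 and 1.03 CPM in shPML replicate 1. CD163 had 638 counts there against 3 or fewer, SIGLEC1 578 against 0, and PTPRC 346 against 7 or fewer. In replicate 1 alone, which does not hold this library, the log2 ratios were -1.14 for TRIB3, -0.55 for PSAT1, 0.69 for ATF3 and -0.41 for ATF4.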

How the results depend on the processing

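With no replicate block, edgeR called 0 higher and 0 lower of the 10 genes and 0 and 0 of the pathway genes (4 and 22 at an unadjusted p under 0.05), with log2 fold changes of 0.73 for ATF3, -1.24 for TRIB3, -0.68 for PSAT1 and -0.69 for PML. DESeq2 with no block called 1 higher and 2 lower of the 10 genes, 4 higher and 7 lower pathway genes, and gave -0.68 for PML (adjusted p = 0.211). Without a threshold on the fold change, with the block, 2 of the 10 genes were called higher and 4 lower, and 18 and 21 pathway genes. Beyond 1 on the log2 scale, these counts were 0 and 1, and 2 and 3. DESeq2 with the block, RLE normalization, no filter and at least 10 counts in every library left the counts of called genes among the 10 at 1 higher and 2 lower. They gave 6 to 10 higher and 11 lower pathway genes.

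Leaving out a library in the blocked fit leaves the ratio of the other experiment and no error, so it gives values and no test. These values nearly repeat the ratios of the single experiments, so their distance from the full fit cannot measure how stable a gene is. They ranged from 0.17 to 0.20 for DNAJB9, from -0.40 to -0.10 for HSPA5 and from -0.27 to 0.15 for CHAC1. With a library left out and no block, the lone library is assumed to vary like the other group, and 0 of the 10 genes and 0 of the pathway genes were called in either direction. There, without shCtrl replicate 1, shCtrl replicate 2, shPML replicate 1 and shPML replicate 2 in turn, the log2 fold change was 0.84, 0.64, 0.68 and 0.78 for ATF3, -1.38, -1.07, -1.17 and -1.32 for TRIB3, -0.75, -0.60, -0.73 and -0.63 for PSAT1, and -0.92, -0.40, -0.40 and -1.06 for PML. Signs turned for CHAC1 (0.13 without shPML replicate 1), ASNS (-0.23 without shCtrl replicate 1 and -0.068 without shPML replicate 2) and CEBPB (-0.084 without shPML replicate 2). In these fits the lone library of a group was compared with the other group's libraries of both experiments. Within the experiments CEBPB had log2 ratios of 0.78 and 1.03. On the log2 scale it was higher in replicate 2 than in replicate 1 by 1.41 in shCtrl and 1.66 in shPML. The cause of the turned signs was not tested. Of the 10 genes ASNS had the fewest counts, 34 to 73 per library, and its level is also uncertain through the bases it shares with AC079781.5.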
